A study of Mus musculus with 24 samples.

Results

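The genes of deadenylation, decapping and mRNA decay were followed in the mouse hippocampus after fear conditioning. The set holds 41 of the 47593 genes in the deposited count table and was defined as a list of gene symbols of this machinery. It comprises 6 scaffold and accessory subunits and 4 deadenylases of CCR4-NOT, 3 other deadenylases, 3 poly(A)-binding proteins, 6 decapping factors, 2 5′-3′ exonucleases, 7 LSM proteins and 10 exosome subunits. All 41 were in the table, and all 41 had enough counts to be tested in every comparison.

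The data are 24 poly(A) RNA-seq libraries from hippocampi of male C57BL/6J mice aged 8 to 12 weeks, in 8 groups of 3 mice. WT mice and mice of the Tob-KO strain, a knockout of Tob made before this study, were either naive or conditioned by pairing a tone with foot shocks. Conditioned mice were culled after 15 min, after 1 h or after 3 h. Naive mice were not conditioned, and the naive libraries of each genotype are the reference for all of its later time points. Each library is a bulk sample, so fewer cells of a type and less RNA per cell cannot be told apart. Levels are given as CPM, TMM-scaled counts relative to the library total, where TMM corrects for differences in library composition.

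The decay of most mRNAs starts at the tail. The PAN2-PAN3 and CCR4-NOT complexes shorten the poly(A) tail that poly(A)-binding proteins coat. The LSM1-7 ring and its partners then hand the message to the decapping enzyme DCP2 and the 5′-3′ exonuclease XRN1. Alternatively, the exosome degrades the RNA from the 3′ end. TOB binds the CNOT7 and CNOT8 deadenylases and the cytoplasmic poly(A)-binding protein, and so brings CCR4-NOT to mRNAs. The comparisons ask whether the mRNAs of this machinery differ between genotypes and whether they change after conditioning.

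Several members come in pairs of similar genes, and the sequences of 4 pairs are shown because each pair is compared below. Over their coding sequences the pairs Cnot7 and Cnot8, Cnot6 and Cnot6l, Pabpc1 and Pabpc4, and Dcp1a and Dcp1b were 72.3%, 73.6%, 73.1% and 64.3% identical. The longest runs of identical bases were 20, 20, 18 and 15, far shorter than the 150-base reads. Each pair is printed as the 30 coding bases around its longest shared run, from GENCODE transcripts of GRCm38, on the coding strand, with capitals at the bases that differ.
Cnot7: ggctAtcatttcacagtggttatgaCtttg
Cnot8: ggctTtcatttcacagtggttatgaTtttg
Cnot6: CAaaTcataaagacttcaaggaactGaggt
Cnot6l: ACaaCcataaagacttcaaggaactAaggt
Pabpc1: CgccCCcagctaccccatggcctcTCtGta
Pabpc4: AgccAGcagctaccccatggcctcCTtAta
Dcp1a: AgccaacCagtgggagaagactgATAtAga
Dcp1b: GgccaacGagtgggagaagactgGAGtGga

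The larger source of shared sequence was pseudogenes and readthrough genes. No 100-base window of the coding sequence was shared with another gene for 28 of the 41 members. For Lsm7, however, 100% of the windows also occurred in other annotated genes, for Lsm5 71.8%, for Pabpc4 59.1% and for Pabpn1 39.4%, the last in a single readthrough gene, Gm20521, that had no counts in this table. Exons of 16 members overlap those of a neighbour, and the strand setting of the counting is not stated, so the counts of these genes are uncertain. That Gm20521 had no counts does not show how reads from the shared sequence were counted.

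Depth was 28847989 to 41595972 counts per library. Tob1, the targeted gene on chromosome 11 (94211454 to 94215495 of GRCm38, forward strand), was counted in every library and was higher in those labelled Tob-KO, at 52 to 68.6 CPM, than in those labelled WT, at 33.7 to 44.4 CPM. Gene-level counts cannot show which part of the transcript remains, and the labels do not describe the allele, so directions between genotypes refer to libraries by their labels. The neuron markers, 9 genes such as Snap25 and Camk2a, were present in all libraries, at a summed 9387 to 10640 CPM. Choroid plexus markers varied most, from a summed 30.8 to 5037 CPM. WT 15 min replicate 2 had the lowest level of all 24 libraries for 10 of the 41 members and the highest for 5. Of all genes tested, it was lowest for 7.88% and highest for 9.56%. Tob-KO naive replicate 3 was lowest for 5 members (5.21% of all genes) and WT naive replicate 3 for 4 (5.91%). Each other library was lowest for at most 3. Tob-KO 15 min replicate 3, the deepest library, was lowest for 3, Pabpn1 and Pan2 among them, and for 7.57% of all genes. The calls at 15 min are also given without Tob-KO 15 min replicate 3 and WT 15 min replicate 2.

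Levels between genes were compared as mean CPM per kb of annotated exon, where exon length joins all annotated transcripts and so lowers the value of genes with long, rarely used exons. Pabpc1, the main cytoplasmic poly(A)-binding protein, was the most abundant member at 33.4 ± 1.68 CPM per kb (SD, n = 24). It was followed by Ddx6, a helicase that activates decapping and represses translation, at 25.6 ± 0.947, and Lsm4 at 21.1 ± 1.56. The range of Pabpc1 over the libraries did not overlap that of Ddx6, whereas Ddx6 (24 to 27.6) and Lsm4 (18.8 to 24.7) overlapped.

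Cnot8 and Cnot7, the DEDD-family deadenylases of CCR4-NOT, came next at 17.5 ± 0.719 and 16.2 ± 0.609 CPM per kb. The EEP-family deadenylases Cnot6 and Cnot6l stood at 10.4 ± 0.545 and 7.2 ± 0.432. Among the accessory subunits, Cnot2 was highest at 13.2 ± 0.588 and Cnot4, an E3 ubiquitin ligase, lowest at 3.62 ± 0.26, with the scaffold Cnot1 between them at 8.49 ± 0.59.
The other deadenylases were lower than those of CCR4-NOT. Parn was at 4.49 ± 0.318 CPM per kb, Pan3 at 2.81 ± 0.171 and Pan2, the catalytic partner of Pan3, at 2.22 ± 0.294.

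In the decapping group Dcp2, the catalytic enzyme, was at 13 ± 0.581 CPM per kb and its scaffold Edc4 at 12.2 ± 0.935, with ranges that overlapped. Edc3, Dcp1a and Dcp1b were lower, at 4.75, 3.26 and 2.33. The nuclear exonuclease Xrn2 (12.5 ± 0.796) was above the cytoplasmic Xrn1 (3.15 ± 0.187) in every library on this scale. In mean CPM the order was the reverse, at 49.8 for Xrn2 and 58.6 for Xrn1. It thus rests on annotated exon lengths of 3.98 kb for Xrn2 and 18.6 kb for Xrn1.

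Subunits of a single complex did not have equal mRNA levels on this scale. The LSM proteins ran from Lsm3 at 1.52 ± 0.196 CPM per kb to Lsm4, and the exosome subunits from Exosc5 at 1.64 ± 0.169 to Exosc10, its nuclear exonuclease, at 11.6 ± 0.675. The nuclear poly(A)-binding protein Pabpn1 was at 5.87 ± 1.39 and was the member that varied most between libraries. Its highest library was 3-fold above its lowest, whereas the other 40 members stayed within 2-fold. The coefficient of variation was 23.7% for Pabpn1 and had a median of 6.36% over the 41 members.

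**Figure D1:**
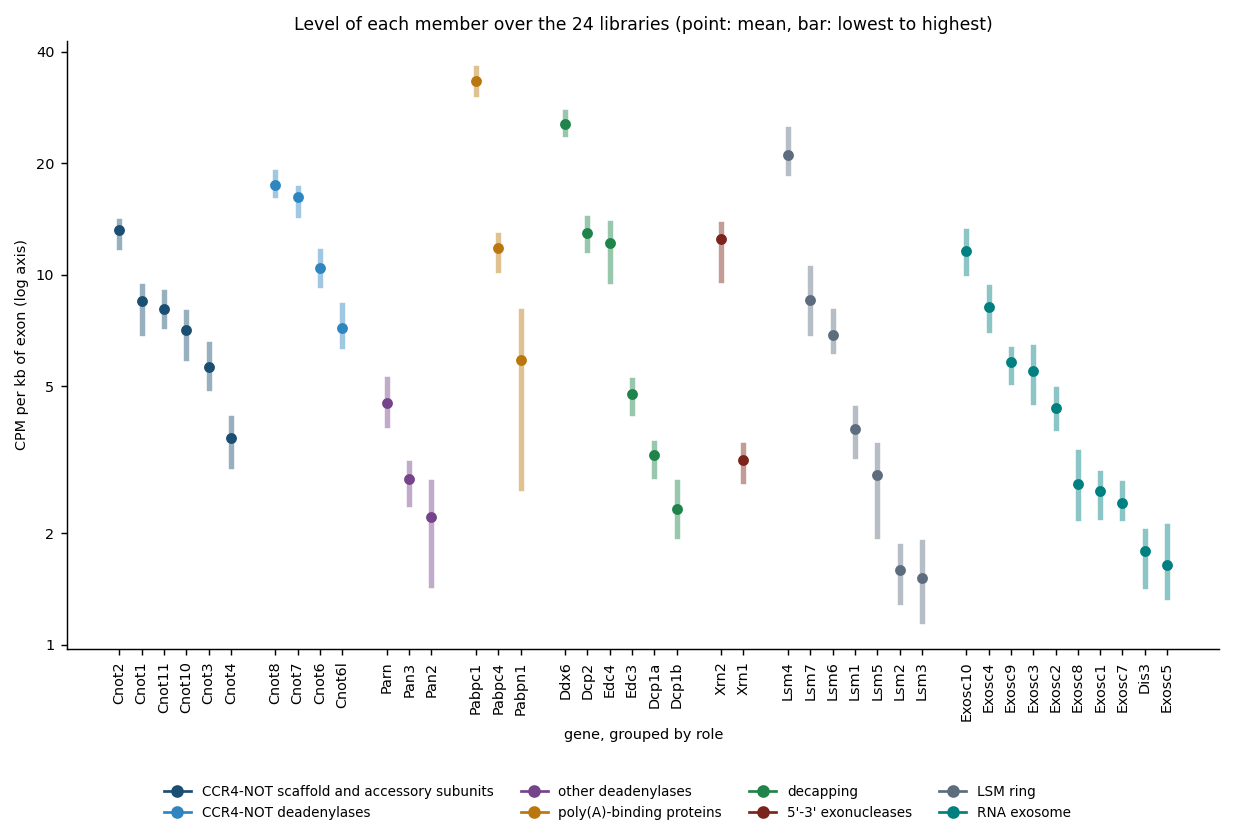
Level of the 41 members in CPM per kb of annotated exon on a log axis, grouped by role, with the mean as a point and the lowest to highest of the 24 libraries as a bar. Pabpc1 stands highest at 33.4, Lsm3 lowest at 1.52, and the bar of Pabpn1 is the longest.

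Between genotypes, none of the 41 members was called at any time point. The first comparison used the settings of the study's methods, edgeR's exact test over 6 libraries with an adjusted p of at most 0.05 and at least a 2-fold difference. It called 0 members in naive mice, where 0.0218% of all genes were called, 0 at 15 min (0.555%), 0 at 1 h (0.0330%) and 0 at 3 h (0.0274%). At an unadjusted p under 0.05 there was 1 member (2.44%) at each time point by the exact test. Of all genes, 4.04%, 8.05%, 5.34% and 3.97% were under it, in order of time. DESeq2 also had 1 at each and called none, the quasi-likelihood test had 2, 1, 2 and 3 and called none, and without the fold limit the exact test called none. At 15 min all 12 choroid plexus markers were higher and 2 of 7 blood markers lower in the libraries labelled Tob-KO by the exact test. With a choroid plexus score of each library as a covariate, the quasi-likelihood test also called no member at 15 min. The part of the blood markers in the values of the members was not tested.

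Over all time points, 12 libraries against 12, edgeR's quasi-likelihood test without a fold limit called 0 of 41 members and 0.462% of all genes. At an unadjusted p under 0.05 this test had 3 members (7.32%), beside 13.3% of all genes. DESeq2 also had 3 members and called none. The median log2 fold change was 0.006 over the members and -0.002 over all genes tested. The 95% intervals of all 41 lay between -0.28 and 0.24, well inside a 2-fold difference in either direction.

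The smallest adjusted p belonged to Pabpc1. Its level ranged from 201 to 229 CPM (median 210.0) in the WT libraries and from 205 to 236 (median 228) in those labelled Tob-KO, so the groups overlapped. The log2 fold change was 0.085 (95% interval 0.033 to 0.14), a mean of 225 against 212 CPM, with an adjusted p of 0.137 by edgeR's quasi-likelihood test.

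Exosc5, a structural subunit of the exosome ring, had the largest difference over all times. In naive mice its level was 11.3, 10.6 and 10.7 CPM in WT and 11.5, 11.5 and 10.1 in the libraries labelled Tob-KO. The values at 15 min were 11, 13.1 and 11.4 against 9.71, 10.4 and 9.2, and at 1 h 11.1, 10.1 and 10.6 against 8.46, 8.78 and 9.1. The genotypes overlapped in naive mice and did not overlap at 15 min and 1 h. Here and below, the share of all genes whose groups do not overlap was not counted. At 3 h the WT libraries had 9.54, 9.62 and 10.6 CPM and those labelled Tob-KO 9.74, 9.24 and 9.97, which overlapped again. The log2 fold changes at 15 min and 1 h were -0.28 (adjusted p = 0.586, edgeR's exact test) and -0.27 (0.756), and over all times -0.14 (0.180, quasi-likelihood test), none of them called. Lsm3 followed over all times at -0.12 (0.524).

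The 2 members with the largest differences at each time were examined next. In naive mice these were Pan2 (log2 fold change 0.21) and Cnot4 (0.20), both with an adjusted p of 1 by edgeR's exact test. Cnot4 was at 29.7, 33.3 and 32.7 CPM in WT and 34.7, 37.4 and 38 in the libraries labelled Tob-KO, groups that did not overlap. At 15 min Lsm7 followed Exosc5 at -0.19, and at 1 h Exosc2 did at -0.14.

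At 3 h the largest was Lsm5, the lowest-counted member, with 50 to 65 counts per WT library. It stood at 2.18, 1.97 and 1.56 CPM in WT and 2.44, 2.67 and 2.74 in the libraries labelled Tob-KO, again without overlap. Its log2 fold change of 0.46 (95% interval 0.071 to 0.84 in the quasi-likelihood fit) had an adjusted p of 1 by edgeR's exact test, and most of its coding windows also occur in pseudogenes. Lsm3 was at -0.18.

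**Figure D2:**
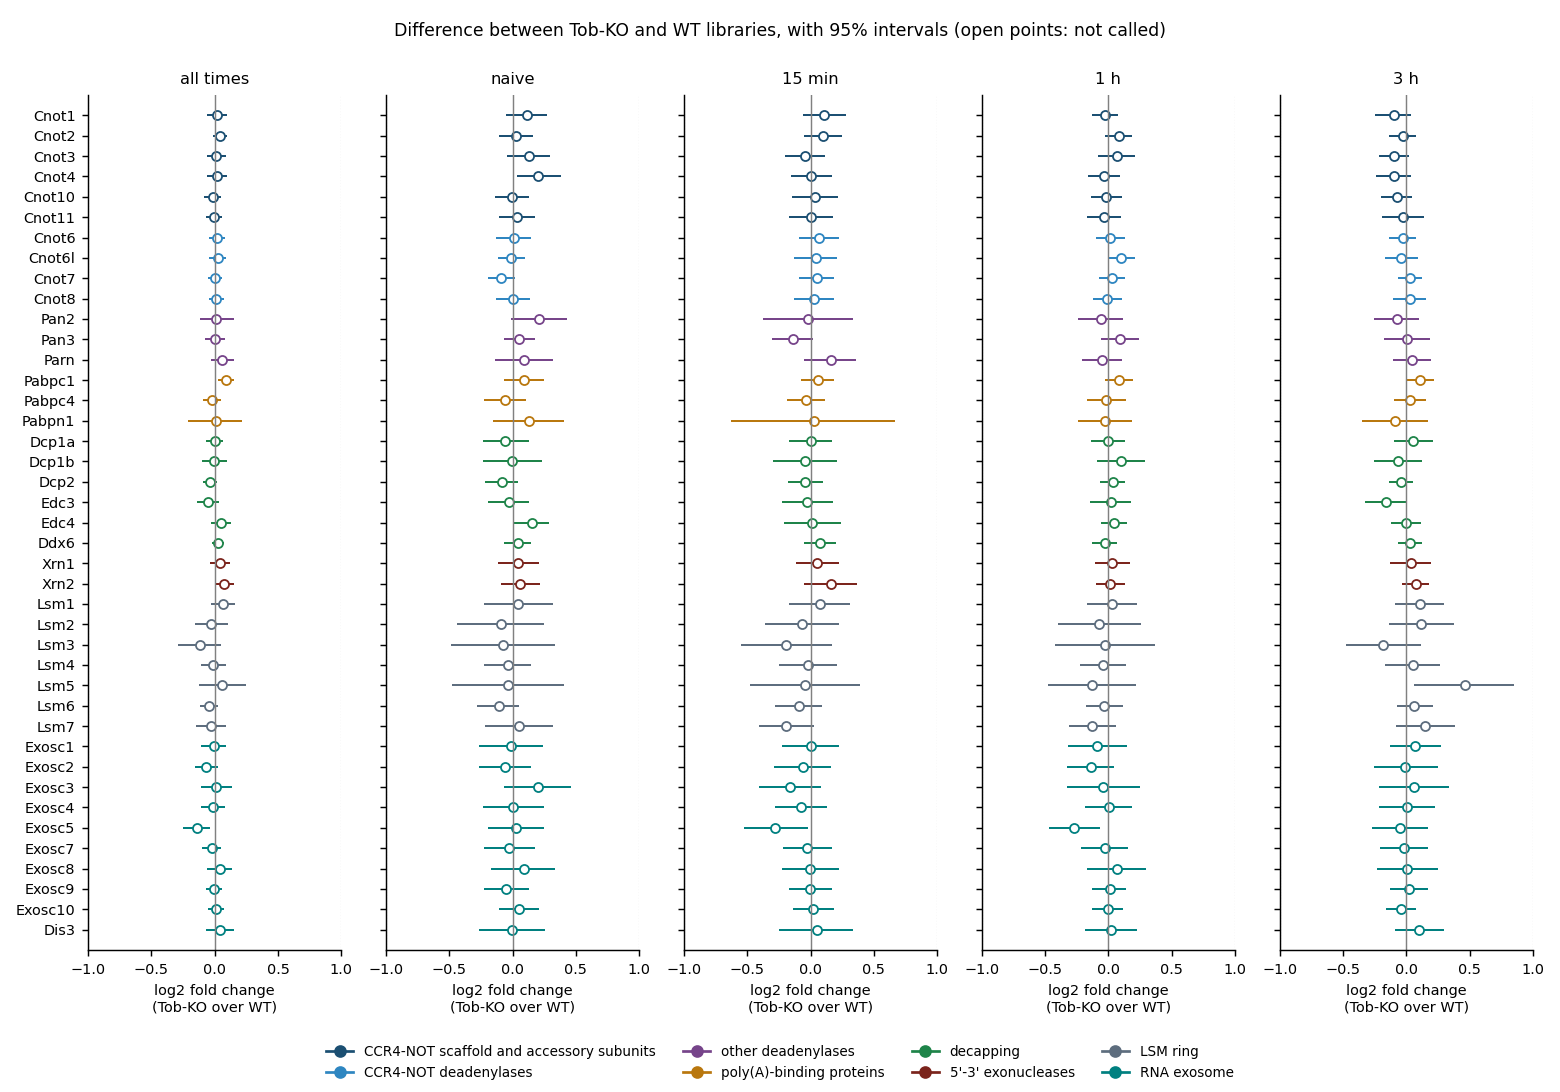
Log2 fold change of libraries labelled Tob-KO over WT for the 41 members, over all times and at each time point, with 95% intervals from edgeR's quasi-likelihood fit, coloured by role. Every point is open because no member was called, and the intervals over all times lie between -0.28 and 0.24.

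The change after conditioning was not called as different between the genotypes for any member. A test of the genotype by time interaction over 24 libraries called 0 of 41 members, and 0% of all genes, at each of the 3 times. Members with an unadjusted p under 0.05 numbered 5, 3 and 6 (12.2%, 7.32% and 14.6%) by edgeR's quasi-likelihood test, beside 4.82%, 4.15% and 4.74% of all genes. By DESeq2 they numbered 4, 3 and 4, and none was called. The intervals were wide enough to leave sizeable differences undetected, with a median half-width of 0.20 on the log2 scale and a widest span for Pabpn1 of -0.71 to 0.51 at 15 min.

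The members with the largest interaction values were Exosc3 (-0.35) and Exosc5 (-0.30) at 15 min, Exosc5 (-0.29) and Pan2 (-0.26) at 1 h, and Lsm5 (0.50) and Cnot4 (-0.30) at 3 h, where a negative value means a lower change in the libraries labelled Tob-KO. Cnot4 at 3 h was at 36.7, 36.3 and 35.1 CPM in WT and 31.6, 35 and 34.6 in Tob-KO, below WT in each library, whereas in naive mice it was above WT in each. Its adjusted p was 0.894 by edgeR's quasi-likelihood test. Cnot7, which TOB binds, had values of 0.14, 0.12 and 0.13 with unadjusted p of 0.0200, 0.0463 and 0.0335 in this quasi-likelihood fit, and adjusted p of 0.981, 0.999 and 0.894. All 3 interaction values of a gene use the same naive libraries. In those, Cnot7 was at 99.7, 95.3 and 99 CPM in WT and 90.8, 93.2 and 92 in the libraries labelled Tob-KO, which did not overlap.

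At 15 min after conditioning, over both genotypes, 6 of 41 members (14.6%) were lower than in naive mice and none was higher, by edgeR's quasi-likelihood test over 24 libraries at an adjusted p of at most 0.05. Of all genes tested 4.70% were called, 3.03% as lower and 1.68% as higher, and among genes with at least 1 CPM in 3 libraries, as all members have, 6.83% were called. The 6 were the CCR4-NOT subunits Cnot10 and Cnot3, the deadenylase Pan2, the nuclear poly(A)-binding protein Pabpn1, the decapping scaffold Edc4 and the exosome nuclease Exosc10. The deadenylases of CCR4-NOT, the 5′-3′ exonucleases and the LSM ring had no called member. The median over the 41 was 0.014, beside 0.003 over all genes.

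Pabpn1, which controls the length of new poly(A) tails in the nucleus, had the largest change. Naive libraries ranged from 17.5 to 24.2 CPM (median 23.2) and those at 15 min from 8.08 to 20.8 (median 14.1), so 4 of 6 lay below every naive library. The log2 fold change was -0.63 (95% interval -0.91 to -0.34, adjusted p = 0.0117 by edgeR's quasi-likelihood test), a drop of the mean from 22.4 to 14.6 CPM. The gene lies on chromosome 14 (54892500 to 54898169, forward strand) and shares 651 bp of exon with Gm20521, which had no counts. How reads from the shared exon were counted is not known.

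Cnot10, an accessory subunit of CCR4-NOT on chromosome 9 (114585878 to 114640184, reverse strand), had the smallest adjusted p. Its 6 naive libraries lay between 48.3 and 52.5 CPM and the 6 at 15 min between 39.4 and 47.9, with no overlap. It fell by 14.2%, with a log2 fold change of -0.22 (95% interval -0.30 to -0.14, adjusted p = 0.00339 by edgeR's quasi-likelihood test). Its exons overlap no other annotated gene.

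Pan2 (chromosome 10, 128303335 to 128321358, forward strand) ranged from 17.7 to 23.4 CPM in naive mice and from 12.3 to 19.4 at 15 min. The groups overlapped, though all 6 libraries at 15 min were below the naive median. It fell by 21.1% (log2 fold change -0.34, 95% interval -0.51 to -0.17, adjusted p = 0.0202 by edgeR's quasi-likelihood test), while its partner Pan3 was at -0.020 (0.865).

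Exosc10 (chromosome 4, 148558429 to 148582401, forward strand) ranged from 41.5 to 47.2 CPM in naive mice and from 36.3 to 41.9 at 15 min, with 5 of 6 libraries below every naive one. Edc4 (chromosome 8, 105880881 to 105894908, forward strand) went from 63.3 to 76.1 CPM in naive mice to 52.9 to 67 at 15 min. Cnot3 (chromosome 7, 3645268 to 3661109, forward strand) went from 37.1 to 46.4 CPM to 35.2 to 40.1. All of these ranges overlapped. These genes fell by 10.8%, 12.3% and 11.5%, with adjusted p of 0.0118, 0.0249 and 0.0297 by edgeR's quasi-likelihood test. Exons of Edc4 overlap Nrn1l on the same strand, which had no counts, and exons of Cnot3 overlap Leng1 on the opposite strand by 433 bp. How reads from these overlaps were counted is not known.

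Several of these calls were lost when libraries were left out. WT 15 min replicate 2 and Tob-KO 15 min replicate 3 were picked after the data were seen, for their low values, so leaving them out moves these fold changes towards 0 by construction. Without them only Cnot10 of the 6 was still called (log2 fold change -0.17, adjusted p = 0.0392 by edgeR's quasi-likelihood test). Pabpn1 was then at -0.42 (0.0632), Pan2 at -0.21 (0.162), Edc4 at -0.10 (0.241) and Exosc10 at -0.12 (0.145), while Cnot3 was at -0.17 (0.118), close to its value with all libraries. Without Tob-KO 15 min replicate 3 alone, or without Tob-KO naive replicate 3 alone, 3 members were called, namely Cnot10, Exosc10 and Pabpn1. Pan2, Edc4 and Cnot3 lost their call without 3, 5 and 7 of the 24 libraries, each left out alone. In Tob-KO 15 min replicate 3 Pabpn1 was at 8.08 CPM and Pan2 at 12.3, each the lowest of the 24 libraries.

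Markers of other cell types also moved at 15 min. The summed endothelial markers were at 138 to 189 CPM in naive mice and 181 to 267 at 15 min, where 3 of 6 genes (Flt1, Cldn5 and Pecam1) rose, and none of the 6 was at 0 in any library. Summed astrocyte markers were at 4403 to 4614 CPM in naive mice, 4247 to 4961 at 15 min and 3958 to 4785 at 1 h. Of these 6 genes only 2 (Aqp4 and Gja1) were called, higher at 15 min and 1 h. The median log2 fold change over the 6 was 0.08 at 15 min and 0.00 at 1 h. The endothelial marker Ly6c1 was called lower at 1 h (-0.36, adjusted p = 0.0325 by edgeR's quasi-likelihood test). The part of these markers in the changes of the members was not tested. The choroid plexus sum had a median of 1572 CPM in naive mice and 61.4 at 15 min, and with a choroid plexus score of each library as a covariate all 6 members were still called at 15 min.

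At 1 h, 7 of 41 members (17.1%) were called, 5 lower and 2 higher, where 6.15% of all genes tested (3.71% lower and 2.45% higher) and 8.42% of those with at least 1 CPM in 3 libraries were called. DESeq2 called 10, these 7 with Pan2, Cnot4 and Ddx6. These shares of all genes are edgeR's, and that of DESeq2 is not given here. This comparison uses the same naive libraries as that at 15 min. The lower members were Cnot10, Pabpn1, Exosc10, Exosc8 and Dcp1b, and the higher ones were Cnot6l and Dcp2. The median over the 41 was -0.004, beside -0.003 over all genes.

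Pabpn1 ranged from 13.5 to 16.7 CPM at 1 h (median 15), below all 6 naive libraries, with a log2 fold change of -0.58 (95% interval -0.87 to -0.30, adjusted p = 0.0135 by edgeR's quasi-likelihood test). Cnot10 ranged from 42.2 to 45.6 CPM, also below every naive library, with a log2 fold change of -0.20 (-0.29 to -0.12, 0.00349). For both genes the 6 libraries at 1 h lay closer together than those at 15 min.

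Cnot6l, a catalytic deadenylase of CCR4-NOT on chromosome 5 (96070333 to 96164171, reverse strand), was the clearest rise. Its naive libraries were tightly grouped between 70.5 and 72.4 CPM, and those at 1 h lay between 74 and 85.3, with no overlap. It rose by 10.7% (log2 fold change 0.15, 95% interval 0.065 to 0.23, adjusted p = 0.0268 by edgeR's quasi-likelihood test). Dcp2, the decapping enzyme on chromosome 18, rose by 7.77%, from 102 to 118 CPM in naive mice to 115 to 123 at 1 h, which overlapped (0.0461). Scaled by library size alone, without TMM, neither was called, with adjusted p of 0.0521 for Cnot6l and 0.103 for Dcp2.

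The remaining calls at 1 h were close to the threshold. Exosc8 (chromosome 3, 54728678 to 54735393, reverse strand) fell by 14.3% (adjusted p = 0.0430 by edgeR's quasi-likelihood test), from 11.5 to 14.3 CPM in naive mice to 9.53 to 12.1. Exosc10 fell by 8.2% (0.0477), from 41.5 to 47.2 CPM to 39.1 to 42.4. Dcp1b (chromosome 6, 119175253 to 119221616, forward strand), a cofactor of DCP2, fell by 13.2% (0.0489), from 14.7 to 17.5 CPM to 12.5 to 15.1. The ranges of all 3 overlapped the naive ones. With the choroid plexus score as a covariate, or with RLE size factors in place of TMM, Exosc10 and Dcp1b were not called. Leaving out each library in turn gave 2 to 9 members at 1 h, with 2, Cnot10 and Pabpn1, without Tob-KO naive replicate 1 or without Tob-KO 1 h replicate 2.

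Pan2, Edc4 and Cnot3 were at -0.27, -0.11 and -0.15 at 1 h, with adjusted p of 0.0577, 0.211 and 0.0607 by edgeR's quasi-likelihood test. Whether a gene called at only 1 of the times differed between the times was not tested.

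At 3 h no member was called, nor any other gene, by edgeR's quasi-likelihood test over 24 libraries, and DESeq2 called no member. At an unadjusted p under 0.05 there were 5 members (12.2%) by edgeR, beside 9.05% of all genes, and 6 members by DESeq2. The largest values were those of Pabpn1 at -0.22 (95% interval -0.50 to 0.069) and Dcp1b at -0.20 (-0.32 to -0.068), with adjusted p of 0.654 and 0.447. Cnot10 was at -0.028 (-0.11 to 0.054), with libraries between 46 and 52 CPM that overlapped the naive range.

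**Figure D3:**
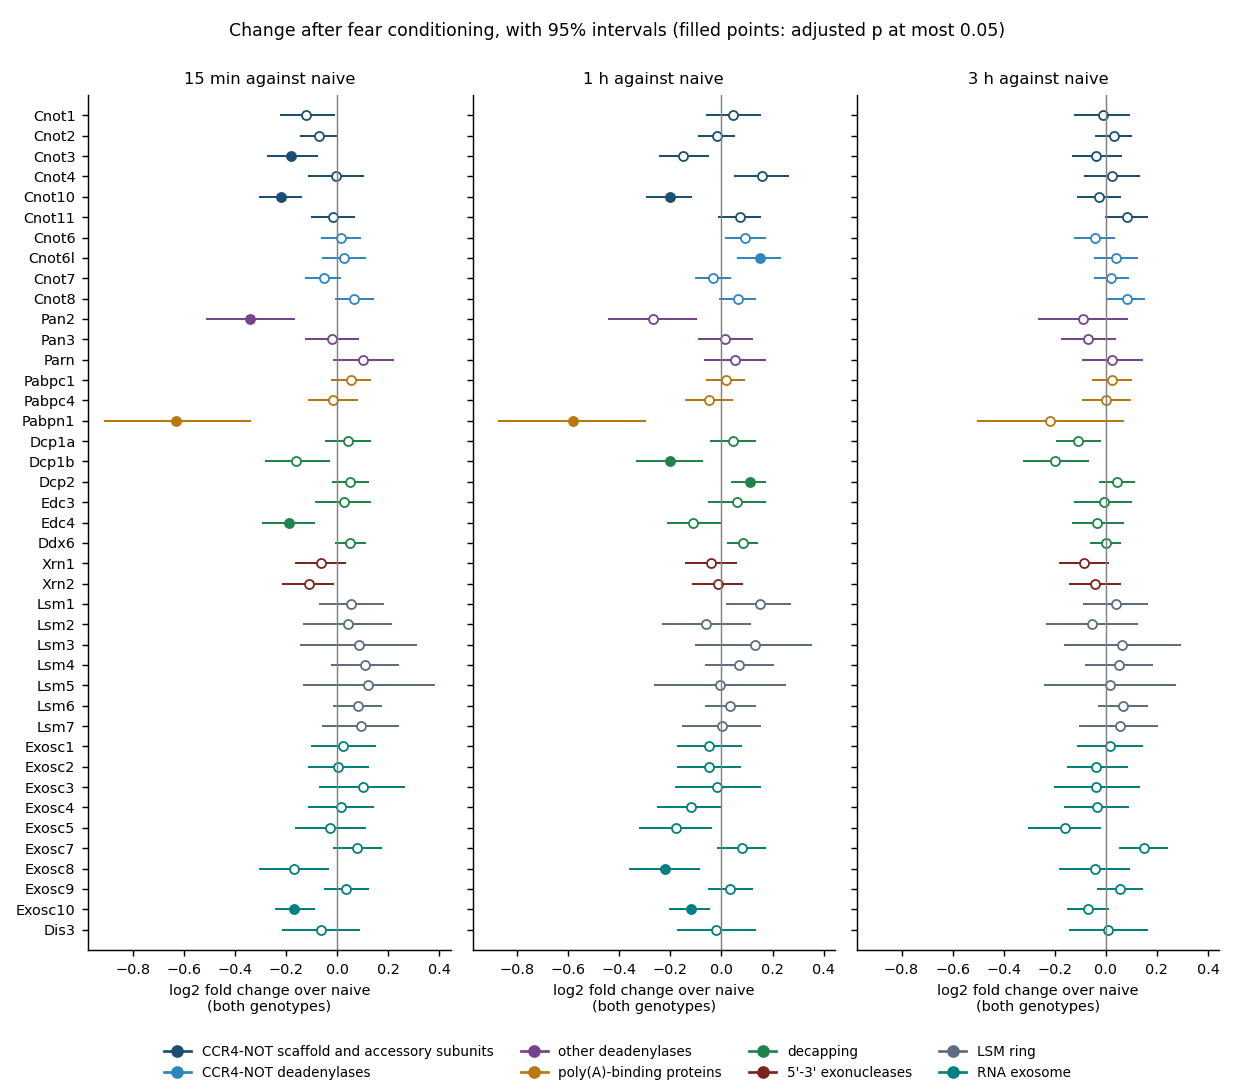
Log2 fold change over naive mice of the 41 members at the 3 times after conditioning with the genotypes together, with 95% intervals from edgeR's quasi-likelihood fit over 24 libraries. Filled points are called: 6 below 0 at 15 min, 5 below and 2 above 0 at 1 h, and none at 3 h.

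Within a single genotype no member was called at any time by edgeR's quasi-likelihood test over its 12 libraries, where 0.0317%, 0.174% and 0% of all genes were called in WT at the 3 times in order and 0.841%, 0.175% and 0% in Tob-KO. In WT, unadjusted p under 0.05 were found for 8, 5 and 2 members (19.5%, 12.2% and 4.88%). Of all genes in WT, 8.15%, 10% and 3.41% were under this limit. In Tob-KO there were 7, 11 and 5 such members (17.1%, 26.8% and 12.2%), beside 16.7%, 15.6% and 9.97% of all genes. DESeq2 called Pabpn1 in WT at 15 min, Cnot4 in WT at 1 h, and Cnot3, Edc4 and Pan2 in Tob-KO at 15 min. The share of all genes that DESeq2 called is not given here.

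The values of each genotype can still be set side by side. The share of all genes whose 3 libraries at a later time do not overlap the naive ones was not counted. Pabpn1 in WT was at 17.5, 22.6 and 24.2 CPM in naive mice, 17.6, 12.6 and 13.1 at 15 min, 15, 16.7 and 13.5 at 1 h, and 19.3, 21.3 and 19 at 3 h. In the libraries labelled Tob-KO it was at 23.4, 23.7 and 23.1, then 15.2, 20.8 and 8.08, then 13.9, 15.4 and 15, and then 15.8, 19.1 and 21.3. Means were below the naive mean at each later time in each genotype, and the spread was largest in Tob-KO at 15 min. The log2 fold changes at 15 min were -0.58 in WT and -0.67 in Tob-KO, and at 1 h -0.51 and -0.65, with adjusted p between 0.177 and 0.390.

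Cnot10 was lower at 15 min and 1 h in each genotype by value. In WT it was at 48.3, 52.5 and 51.7 CPM in naive mice, 45.9, 39.4 and 43.9 at 15 min, 42.3, 44.9 and 45.6 at 1 h, and 52, 51.8 and 49.5 at 3 h. In the libraries labelled Tob-KO it was at 50.6, 49.5 and 51.8, then 43.1, 47.9 and 41.5, then 44.6, 42.2 and 44.5, and then 46, 49.5 and 50.4. In each genotype the libraries at 15 min and 1 h lay below all naive ones. The difference between the genotypes in this change was 0.046 at 15 min (95% interval -0.12 to 0.22) and -0.012 at 1 h (-0.18 to 0.16).

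For Pan2 the naive libraries were at 17.7, 19.5 and 21.7 CPM in WT and 22.2, 22.4 and 23.4 in those labelled Tob-KO. At 15 min WT had 17.5, 15.1 and 17.9 and Tob-KO 18.1, 19.4 and 12.3, and at 1 h WT had 18.5, 18.5 and 16.6 and Tob-KO 16.8, 16.4 and 18.3. Later libraries lay below all naive ones in Tob-KO and overlapped them in WT. The log2 fold changes at 15 min were -0.23 in WT and -0.45 in Tob-KO, and their difference of -0.22 (95% interval -0.57 to 0.12) had an adjusted p of 0.983 in the interaction test.

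Exosc10 in WT was at 41.5, 46.1 and 43.5 CPM in naive mice, 36.3 to 41.9 at 15 min and 40.3, 42 and 40.2 at 1 h. In the libraries labelled Tob-KO it was at 47.2, 42.8 and 45.6, then 40.7, 40.7 and 38.4, and then 40.7, 39.1 and 42.4. The later libraries overlapped the naive ones in WT and lay below them in Tob-KO. The interaction values were -0.022 at 15 min (95% interval -0.18 to 0.14) and -0.052 at 1 h (-0.21 to 0.11), neither called.
Edc4 was at 63.3, 69 and 70.5 CPM in naive WT and 67, 52.9 and 66.7 at 15 min, and at 74.8, 73.6 and 76.1 and then 66.2, 64.7 and 57.2 in the libraries labelled Tob-KO. Cnot3 was at 37.1, 42 and 43.2 CPM in naive WT and 38, 40.1 and 36.9 at 15 min, and at 43.4, 43.7 and 46.4 and then 38.2, 38.1 and 35.2 in the libraries labelled Tob-KO. Both genes overlapped between the times in WT and did not in Tob-KO, but their interaction values of -0.13 (95% interval -0.33 to 0.072) and -0.16 (-0.34 to 0.012) were not called.

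Cnot6l was called at 1 h over both genotypes but in neither alone, with log2 fold changes of 0.085 in WT (95% interval -0.037 to 0.21, adjusted p = 0.666 by edgeR's quasi-likelihood test) and 0.22 in Tob-KO (0.110). It was at 71.6, 72.4 and 71.4 CPM in naive WT and 76, 78.8 and 74 at 1 h, and at 70.7, 72.2 and 70.5 and then 85.3, 80.5 and 80.0 in the libraries labelled Tob-KO. By value, neither genotype overlapped between the times. At 15 min the libraries were spread over both sides of the naive ones, at 79.1, 66.1 and 70.7 in WT and 75.7, 76.2 and 69.8 in Tob-KO.
Dcp2 was at 114, 107 and 118 CPM in naive WT and 116, 116 and 117 at 1 h, and at 106, 102 and 109.7 and then 115, 119.5 and 123 in the libraries labelled Tob-KO. It overlapped in WT and did not in Tob-KO, with an interaction value of 0.12 (95% interval -0.0088 to 0.25) that was not called.

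**Figure D4:**
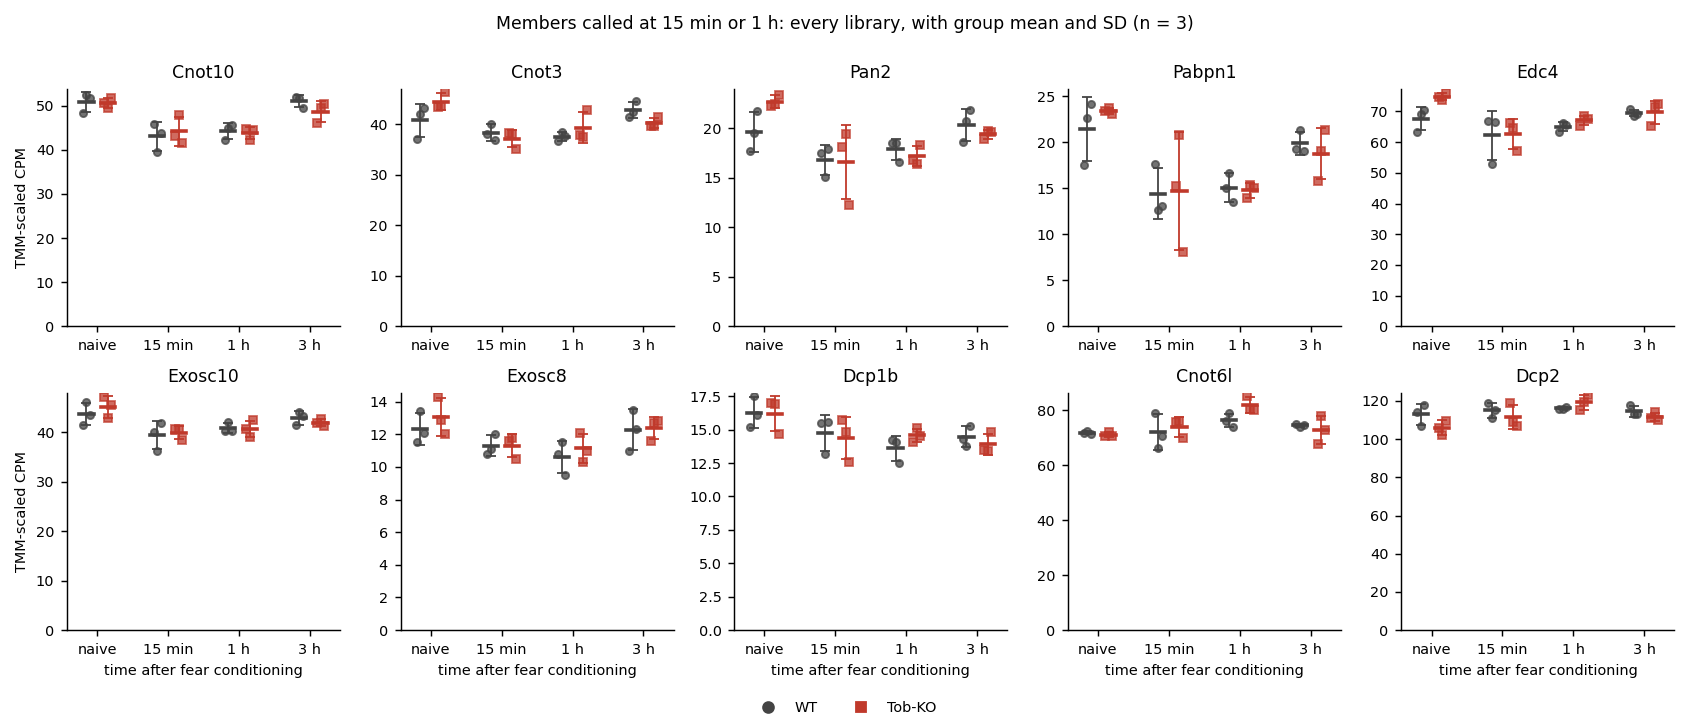
TMM-scaled CPM of the 10 members called at 15 min or 1 h in each library, by time and genotype (circles WT, squares Tob-KO by label), with group mean and SD (n = 3). Cnot10 and Pabpn1 sit lower at 15 min and 1 h than in naive mice in each genotype, Cnot6l sits higher at 1 h, and Pabpn1 is most spread in Tob-KO at 15 min (8.08 to 20.8).

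The paralogs were compared within each library as a ratio of CPM per kb. Cnot7 and Cnot8 were nearly equal, at a ratio of 0.924 ± 0.0539 (SD, n = 24) with Cnot7 the higher in 2 of 24 libraries. Cnot6 exceeded Cnot6l in all 24 (1.45 ± 0.0633), as did Pabpc1 Pabpc4 (2.84 ± 0.155) and Dcp1a Dcp1b (1.41 ± 0.136). The ratio does not use the scaling of the libraries, but it does rest on the annotated exon lengths. In mean CPM, not divided by length, Cnot6 was below Cnot6l (68.9 against 74.3) and Cnot7 was well above Cnot8 (94.1 against 46.2). Coding windows shared with other annotated genes were 59.1% for Pabpc4 and 8.02% for Pabpc1, and 13% for Cnot8 and 0% for Cnot7. The ratios were not corrected for this.

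The ratio of Dcp1a to Dcp1b was 1.18 to 1.37 in naive mice and 1.45 to 1.73 at 1 h, ranges that did not overlap. Dcp1b was at 15.2, 17.5 and 16.1 CPM in naive WT and 14.2, 14.1 and 12.5 at 1 h, and at 17, 16.9 and 14.7 and then 14.1, 15.1 and 14.5 in the libraries labelled Tob-KO. Dcp1a was at 25.1, 28.7 and 28.5 CPM in naive WT and 28, 27.1 and 28.1 at 1 h, and at 27.2, 25.8 and 25.9 and then 27.2, 28.5 and 27.3 in the libraries labelled Tob-KO. Dcp1b was called lower at 1 h, while Dcp1a had a log2 fold change of 0.044 (95% interval -0.041 to 0.13, adjusted p = 0.613 by edgeR's quasi-likelihood test).

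For Cnot6 and Cnot6l the ratio overlapped between naive mice (1.41 to 1.56) and 1 h (1.35 to 1.57). Cnot6 was at 69.9, 65.4 and 68.1 CPM in naive WT and 76.4, 69.6 and 70.5 at 1 h, and at 66.8, 72.2 and 65.9 and then 73.8, 72.4 and 72.5 in the libraries labelled Tob-KO. Its log2 fold change at 1 h was 0.093 (adjusted p = 0.140 by edgeR's quasi-likelihood test), beside 0.15 for Cnot6l, and the difference between these genes was not tested.

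Cnot7 and Cnot8, which contact TOB, were not called at any time. Cnot7 was at 93.1, 84.6 and 93.3 CPM in WT and 91.6, 96.8 and 91.3 at 15 min in those labelled Tob-KO. Cnot8 was at 46.7, 43.4 and 43.2 CPM in naive WT and 44.6, 47.3 and 46.4 at 15 min, and at 44.7, 45.1 and 43.8 and then 49.9, 43.8 and 47.4 in the libraries labelled Tob-KO. The log2 fold changes at 15 min over the genotypes were -0.051 (95% interval -0.12 to 0.013) and 0.065 (-0.0056 to 0.14), neither called. Cnot8 and Cnot6 lie on chromosome 11 as Tob1 does, 36.1 and 44.5 Mb away, and differed between genotypes by 0.013 and 0.016 on the log2 scale over all times.

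Pabpc1 was at 219, 206 and 201 CPM in naive WT and 211, 229 and 217 at 15 min, and at 223, 236 and 205 and then 221, 228 and 233 in the libraries labelled Tob-KO. Pabpc4 was at 51.6, 45.5 and 49.8 CPM in naive WT and no lower than 44.6 at 15 min, and at 49.7, 46.6 and 44.4 and then 48, 46.6 and 46 in the libraries labelled Tob-KO. The times overlapped for both genes, with log2 fold changes over the genotypes of 0.053 and -0.015 at 15 min. The ratio of Pabpc1 to Pabpc4 was 2.48 to 2.91 in WT and 2.77 to 3.12 in the libraries labelled Tob-KO, which overlapped.

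**Figure D5:**
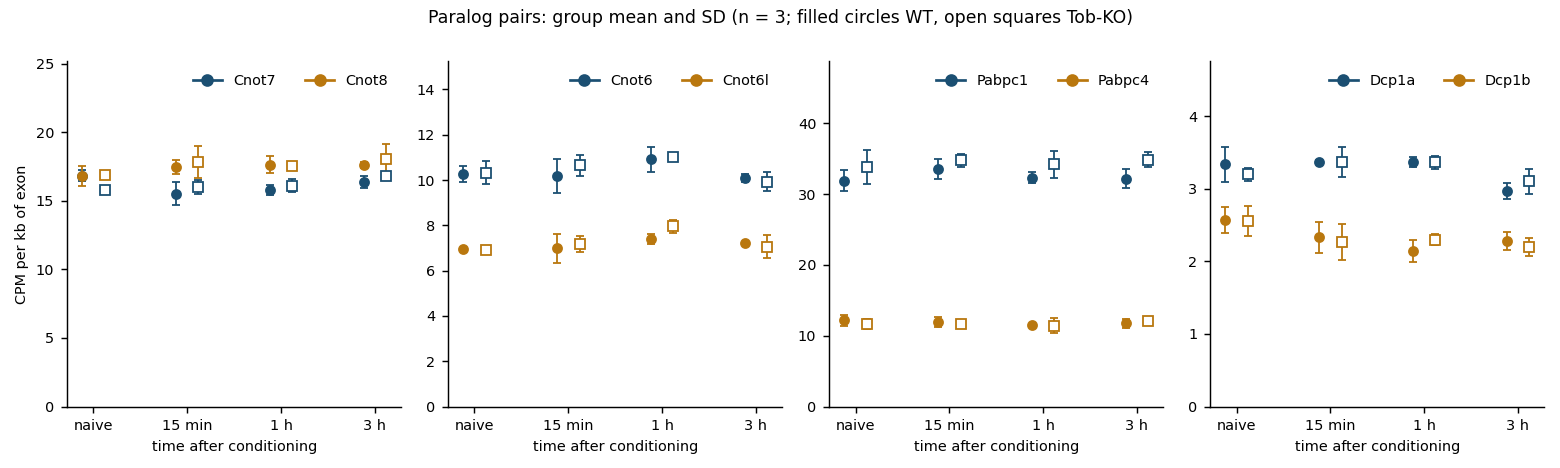
CPM per kb of annotated exon of the 4 paralog pairs by time, as group mean and SD (n = 3), with filled circles for WT and open squares for Tob-KO by label. Cnot7 and Cnot8 run close together, Pabpc1 stands well above Pabpc4 at 33.4 against 11.8, and Dcp1a and Dcp1b lie closest in naive mice.

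The other members were not called by edgeR in any comparison. At 15 min and 1 h the 7 LSM proteins lay between -0.062 and 0.15 on the log2 scale, and at 15 min all 7 were above 0 without any being called. The exonucleases Xrn1 and Xrn2 were at -0.065 and -0.11 at 15 min and at -0.042 and -0.015 at 1 h. Of the 10 exosome subunits 8 were called at neither time, and among these Dis3, a catalytic subunit, was at -0.063 and -0.023. Ddx6, the second most abundant member, was at 0.051 and 0.083, with adjusted p of 0.309 and 0.0773 by edgeR's quasi-likelihood test.

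Further genes of the pathway were counted in the same fits. Of 40 other decay factors, 1 rose and 2 fell at 15 min, where 4.70% of all genes were called, and 3 rose and 2 fell at 1 h, where 6.15% were. Pnrc1, a decapping cofactor, rose at both times (log2 fold change 0.26 and 0.17, adjusted p of 0.00254 and 0.0276 by edgeR's quasi-likelihood test). Skiv2l and Zcchc7, which assist the exosome in the cytoplasm and the nucleus, fell at both, by 0.18 and 0.34 on the log2 scale at 15 min. Larp4, which protects poly(A) tails, and Papd5, a non-canonical poly(A) polymerase, rose at 1 h, by 0.26 and 0.17. Of 12 nonsense-mediated decay genes only Smg1, its kinase, was called, lower at 15 min (-0.24, 0.0487), and of 7 genes of the miRNA silencing complex none was called at any time.

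Proteins that bring CCR4-NOT to mRNAs were examined as a separate list. Of its 23 genes tested, 5 rose at 15 min, where 1.68% of all genes were called higher, and none fell: Btg2 (15.1 to 34.9 CPM), Zfp36l1 (25.2 to 38.1), Zfp36l2 (23.5 to 33.2), Zfp36 (3.07 to 4.32) and Tob1 (45.8 to 55.3). Their log2 fold changes were 1.21, 0.59, 0.50, 0.49 and 0.26, and Btg2 had an adjusted p of 1.02e-07 by edgeR's quasi-likelihood test. At 1 h Tob1 and Rc3h1, which encodes roquin, rose by 0.18 and 0.12 on the log2 scale, and at 3 h none was called. Tob1 is the targeted gene, and within WT its log2 fold changes were 0.19 at 15 min and 0.082 at 1 h (adjusted p of 0.576 and 0.791 by edgeR's quasi-likelihood test), against 0.33 and 0.28 (0.0161 and 0.0604) in the libraries labelled Tob-KO. Neither interaction value, 0.13 and 0.19, was called. For scale, all 12 immediate-early genes examined rose at 15 min over both genotypes, with a median log2 fold change of 1.12. Btg2 belongs to both this list and that of the recruiters. Over both genotypes, the largest change of any member in either direction was the -0.63 of Pabpn1 at 15 min.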

How the data were processed

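Poly(A) RNA of 24 hippocampi was sequenced as directional 150-base paired reads. The authors aligned them with STAR 2.6.1d against GRCm38 and deposited raw HTSeq 0.9.0 counts per gene (versions from the submitters' processing notes). The annotation release, the strand setting and whether marked duplicates were dropped are not given in the sources used here. Groups, times and replicate numbers came from the labels, where the table's 0 h columns are the 15 min mice. The replicates are labelled as separate mice.

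Counts were tested with edgeR 4.0.16 in R 4.3.3 after TMM scaling, keeping genes with at least 0.2 CPM in 2 libraries. Genotypes were compared at each time by the exact test with the study's limits. The quasi-likelihood test, at an adjusted p of at most 0.05, gave the genotype difference over all times, the changes over naive with genotype as a factor, the changes within each genotype and the interaction. P-values were Benjamini-Hochberg adjusted over all genes tested. Intervals are 95% intervals from the quasi-likelihood fits. Counts per library (28847989 to 41595972) carry no molecular identifiers, so counting precision is not that of independent molecules. The steps were tested on simulated data. DESeq2 1.42.0, other scalings and filters, left-out libraries, a replicate block and a choroid plexus covariate were alternatives. Positions, overlaps and sequences come from GENCODE's annotation of GRCm38, which may differ from that used for counting, and all 41 symbols matched 1 annotated gene. Pairs of libraries within a group differed by a chi-square of 3.89 to 24.8 per degree of freedom over genes, so none looked like the same library deposited again.

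The members and lists were chosen with earlier results of these data known. All 41 members could be named. Values per library were given for members called in a comparison (at most the 6 with the smallest adjusted p) and for 4 paralog pairs, and elsewhere the 2 members with the largest fold change were named. Of other lists, at most the 4 called genes with the smallest adjusted p were named, with the 5 recruiters at 15 min and the 5 decay factors at 1 h as exceptions. Other members named, such as Pabpc1 and Cnot7 between genotypes, were picked after their values were seen.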

Additional observations from a re-analysis of the deposited data

How the results depend on the processing

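Members had between 50 and 9720 counts per library, and the low-counted LSM genes and Pabpn1 had the widest intervals. How far depth limited the detection of a 2-fold difference between genotypes was not tested. Alternatives were run for the called members and the 2 members with the largest fold change in each comparison, and none of these 1098 recomputed fold changes changed sign. The fold changes of other members and of the further lists were not followed across the alternatives. The counts of members called between genotypes and in the interaction test stayed at 0 under every alternative, and so did those at 3 h. The count of 6 at 15 min stayed at 6 under other scalings and filters, DESeq2, the replicate block and the choroid plexus covariate. It was 3 to 6 when single libraries were left out and 1 without WT 15 min replicate 2 and Tob-KO 15 min replicate 3. The 7 at 1 h became 3 without a filter on low counts, 2 to 9 with single libraries left out and 10 without these 2, an alternative chosen after the data were seen. Scaled by library size alone it stayed at 7, with Pan2 and Cnot3 in place of Cnot6l and Dcp2. It was 4 without WT naive replicate 3, WT 15 min replicate 3, WT 1 h replicate 1, WT 3 h replicates 1 or 3, Tob-KO 15 min replicate 1 or Tob-KO 3 h replicates 2 or 3. It was 3 without WT naive replicate 2, WT 1 h replicate 3 or Tob-KO 1 h replicate 1. Cnot10 and Pabpn1 were called at both times, and Exosc10 at 15 min, whichever single library was left out, whereas at 1 h Cnot6l, Dcp2, Exosc8, Dcp1b and Exosc10 lost their call in 4, 9, 14, 19 and 20 of 24 such fits.

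In WT alone, 1 member was called without a filter at 15 min and at 1 h, and 1 by DESeq2 at each of these times. Within Tob-KO the count at 15 min was 1 without a filter, 1 with a filter of 1 CPM in 3 libraries, 3 by DESeq2 and 0 to 4 with single libraries left out (4 without Tob-KO 15 min replicate 2). At 1 h it was 1 with only the 6 libraries compared and 0 to 2 with single libraries left out (2 without Tob-KO 15 min replicate 3). The causes were not tested, and the shares of all genes called in these fits within a genotype are not given here.

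Replicate numbers recur in every group, but in none of 28 pairs of groups were all 3 correlations between the deviations of same-numbered libraries above 0.1 (mean correlation per pair of groups -0.214 to 0.245), so the numbers were not taken to pair the samples. With the replicate block 6 members were called at 15 min and 5 at 1 h, where Exosc10 and Dcp1b lost their call, and each library correlated best with its own number in 47 of 168 checks.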
